A study of Mus musculus with 6 samples.

Results

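The 7 genes described here code for costimulatory receptors of lymphocytes and a ligand of one of them, and were followed through the immune cells of a mouse pancreatic tumor. They are 4 receptors of the tumor necrosis factor receptor family (Tnfrsf4, or OX40; Tnfrsf9, or CD137; Tnfrsf18, or GITR; Tnfrsf1b, or TNFR2), 2 receptors of the CD28 family (Icos and Cd28) and Tnfsf9, the ligand of CD137. The genes were taken as a named list and not by a cutoff on a measured value, though with earlier results of these data known. They make up 7 of the 34187 genes counted. All 7 were found in every library.

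Cells came from C57BL/6 mice carrying subcutaneous 6694c2vTRP1 tumors, a transplanted line derived from KPC pancreatic ductal adenocarcinoma, and were enriched for CD45 with magnetic beads. Mice of the 3 groups were injected intraperitoneally with PBS, with mono-IL10 (monomeric interleukin-10, 26 µg per mouse) or with IL10/2-Trikine (an engineered interleukin-10 that also engages the interleukin-2 receptor beta chain, 30.6 µg per mouse). They received 2 doses, the first on day 8 after inoculation, and were sacrificed on day 14. Mouse ages are given in the study's methods by institution and for the model with the parent tumor line, and none is tied there to the mice of this experiment. Cells of 5 mice per group were tagged with hashtag antibodies, pooled, and sequenced as 1 single-cell library per treatment with 5′ chemistry. A difference between treatments and a difference between libraries therefore cannot be told apart, the mice being the replicates, and the contrasts with PBS share their control mice. The tumors grew under the skin from 1 transplanted line, which limits them as a model of the pancreas.

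Costimulatory receptors add a second signal to that of the antigen receptor. Cd28 and Icos bind B7 family ligands on antigen-presenting cells and act through phosphoinositide 3-kinase and related adaptors, whereas Tnfrsf4, Tnfrsf9, Tnfrsf18 and Tnfrsf1b recruit TRAF adaptors and feed into NF-kB. Cd28 is present on resting T cells, while Icos, Tnfrsf4 and Tnfrsf9 appear after activation, and regulatory T cells (Treg) of tumors are known to carry high amounts of Tnfrsf4, Tnfrsf18 and Icos. The ligand Tnfsf9 is made mainly by activated antigen-presenting cells and by some tumor cells.

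Of 44412, 30528 and 55504 barcodes in the PBS, mono-IL10 and IL10/2-Trikine libraries, the deposited cell table annotated 516, 843 and 725 as T or NK cells, and 348, 635 and 400 of these were assigned to a single mouse. The share without a mouse was 24.7% to 44.8%, highest in the IL10/2-Trikine library. Between 1.34% and 1.58% of the barcodes of the smaller library of each pair recurred in the other. Annotated cells held a median of 2635 to 3959 UMIs (unique molecules counted), and each mouse contributed 35 to 215 of them. The other cells were sorted into classes by marker genes. Tumor epithelial-like cells, which carry no CD45, made up 33.2%, 34.5% and 54.0% of the clustered barcodes, macrophage or monocyte-like cells 24.0%, 24.9% and 10.1%, and cells left unnamed 33.1%, 27.6% and 28.9%. Levels are given as CPM, the UMIs of a gene scaled to a common total of gene UMIs. They compare 1 gene across cells, and levels of different genes were not compared because the values are not per length. Poisson and binomial intervals cover counting error only.

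**Figure D1:**
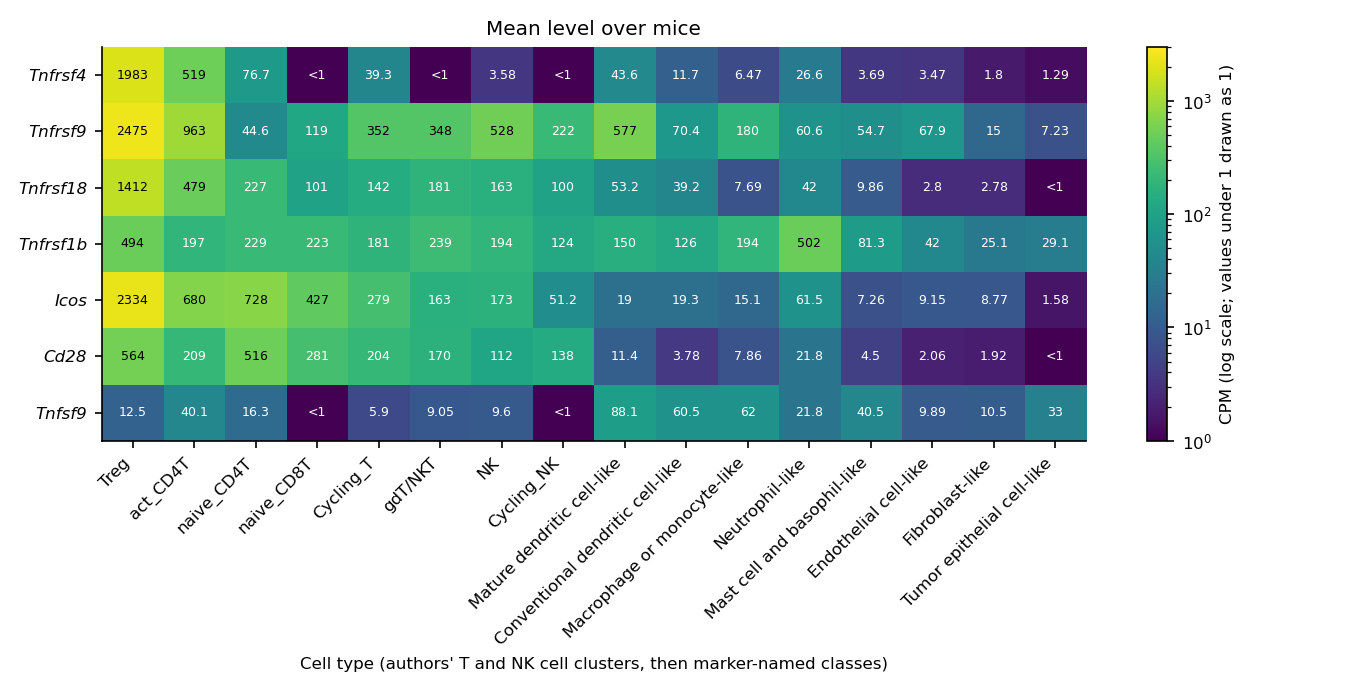
Heat map of the mean CPM over mice of the 7 genes (vertical) in 16 cell types (horizontal), the T and NK cell clusters of the deposited annotation first and the marker-named classes after them; colour is on a log scale and values under 1 CPM are drawn as 1. Treg and act_CD4T hold the highest values of Tnfrsf4, Tnfrsf9 and Tnfrsf18, neutrophil-like and Treg cells those of Tnfrsf1b, and mature dendritic-like and macrophage or monocyte-like cells those of Tnfsf9.

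The OX40 gene, Tnfrsf4, had the steepest distribution over cell types. Its mean level was 1983 ± 857 CPM in Treg (SD, n = 9 mice), 519 ± 197 CPM in act_CD4T, labelled as activated CD4 T cells (n = 9), and 76.7 ± 46.3 CPM in naive_CD4T (n = 6). Each of these steps exceeded the larger SD of its pair. Foxp3, the defining transcription factor of Treg, was at 579 CPM in Treg, 294 CPM in the dividing cluster Cycling_Treg and 12.7 CPM in act_CD4T, and Treg also held 1242 CPM of summed macrophage markers. The CD4 labels were not borne out evenly, since act_CD4T held 273 CPM of Cd8b1 beside 399 CPM of Cd4, and naive_CD4T held more Cd8b1 (205 CPM) than Cd4 (68.3 CPM). Cycling_Treg, Th17/ILCs, ISG+CD8T and naive_T had too few cells per mouse to be ranked for any of the genes. In naive_CD8T the Tnfrsf4 level was 0.56 CPM. In gdT/NKT, a cluster of gamma delta and natural killer T cells, no Tnfrsf4 UMI was counted in any library, with limits at a count of 3 of 17.8, 14.1 and 42.8 CPM in PBS, mono-IL10 and IL10/2-Trikine. NK cells held 8 UMIs in 465 cells (3.58 ± 6.66 CPM, n = 15). After thinning every cell to 1500 UMIs, a Tnfrsf4 UMI was found in 86.7% of Treg, 46.4% of act_CD4T, 0.215% of NK and 0.198% of tumor epithelial-like cells, a type that should lack it. The shares without thinning were 93.8%, 66.4%, 1.29% and 1.48%, at median depths of 2444, 3725, 3240 and 15303 UMIs. NK cells thus stood at the background of the tumor cells for this gene, and Treg and act_CD4T far above it.

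Tnfrsf4 lies beside Sdf4, a gene for a calcium-binding protein of the Golgi, and Sdf4 had the pattern most like it over the 17 cell types compared (Pearson r = 0.91 of log2(CPM + 10), a description over types that share libraries). Sdf4 was at 1242 CPM in Treg, 1360 CPM in Cycling_Treg, 1136 CPM in act_CD4T and between 71.4 and 180 CPM elsewhere. In the GENCODE annotation of the older build GRCm38.p6, exons assigned to Sdf4 cover 166 of the 250 bases before the RefSeq start of Tnfrsf4, so the split of UMIs between both genes is uncertain. The next genes in likeness were Syt11 (0.90), Sv2c (0.89), Itgb8 (0.88) and Cd4 (0.88). Tnfrsf4 and Tnfrsf18 are close neighbours on chromosome 4. Because both were lower in IL10/2-Trikine in the comparison of treatments further on, the parts of their upstream windows outside annotated exons are shown, from RefSeq sequence of GRCm38.p6 on the plus strand, chr4:156013611-156013694 for Tnfrsf4 and chr4:156026072-156026163 for Tnfrsf18.
Tnfrsf4 upstream: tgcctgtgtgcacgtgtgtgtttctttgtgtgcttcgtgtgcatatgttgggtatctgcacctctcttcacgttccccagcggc
Tnfrsf18 upstream: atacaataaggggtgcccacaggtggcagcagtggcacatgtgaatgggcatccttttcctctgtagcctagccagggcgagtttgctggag
Neither stretch held a match to an NF-kB motif (GGG, any 2 bases, then TTTCC), a STAT motif (TTCNNNGAA) or an AP-1 motif (TGANTCA), searched on both strands, and no matches shown here overlap each other. These motifs were found in 1.41%, 7.02% and 6.75% of the 32851 promoter windows of 250 bases.

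In the whole windows of the TNF receptor genes, 5 matches were found, shown here with 30 bases around each and the match in capitals. They lie at chr4:156026213-156026242 (Tnfrsf18, plus strand, within an exon), chr4:145247032-145247061 (Tnfrsf1b, minus strand) and, before the second annotated start of Tnfrsf9, at chr4:150927946-150927975, chr4:150927853-150927882 and chr4:150927969-150927998 (plus strand, the first and the last within an exon), all in GRCm38.p6.
Tnfrsf18 STAT: tgctctacacTTCACAGAAggcctttacaa
Tnfrsf1b STAT: agcgcattcaTTCCCGGAAgagatgctgga
Tnfrsf9 NF-kB: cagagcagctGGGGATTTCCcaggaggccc
Tnfrsf9 STAT: caacagctgaTTCCAAGAAacccttcagag
Tnfrsf9 AP-1: gaggccctgctcagtTGAGTCAcaggtcct
The window before the first start of Tnfrsf9 held 0 matches. A match describes letters only and says nothing of binding. Icos, Cd28 and Tnfsf9 are named only.

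Tnfrsf9, the CD137 gene, was highest in Treg as well (2475 ± 487 CPM, n = 9) but reached further into other cells. It was at 963 ± 304 CPM in act_CD4T (n = 9), 577 ± 126 CPM in mature dendritic cell-like cells (n = 14) and 528 ± 231 CPM in NK cells (n = 15). The steps from Treg to act_CD4T and from act_CD4T to the mature dendritic-like cells exceeded the larger SD, whereas mature dendritic-like and NK cells did not differ by that measure. Cycling_T, the cluster of dividing T cells, stood at 352 ± 127 CPM (n = 14), gdT/NKT at 348 ± 193 CPM (n = 12), macrophage or monocyte-like cells at 180 ± 45.5 CPM (n = 15) and naive_CD4T at 44.6 ± 57.8 CPM (n = 6). With 1500 UMIs per cell, 87.6% of Treg, 64.8% of act_CD4T, 48.7% of mature dendritic-like, 43.7% of NK and 15.6% of macrophage or monocyte-like cells had a Tnfrsf9 UMI, against 1.09% of tumor epithelial-like cells. The receptor was thus detected above the tumor cell background in both lymphoid and myeloid classes. Its 5 most similar genes were Itgav (0.84), Tent5a (0.83), Dnajc1 (0.81), Ube2r2 (0.81) and Ccr8 (0.79), the last a chemokine receptor of tumor Treg.

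Tnfrsf18, the GITR gene, followed the order of Tnfrsf4 at its top. It was at 1412 ± 207 CPM in Treg (n = 9), 479 ± 182 CPM in act_CD4T (n = 9) and 227 ± 123 CPM in naive_CD4T (n = 6), both steps being beyond the larger SD. Below them the levels were 181 ± 91.9 CPM in gdT/NKT, 163 ± 45.7 CPM in NK, 142 ± 47.4 CPM in Cycling_T and 101 ± 46.9 CPM in naive_CD8T. After thinning to 1500 UMIs per cell, a Tnfrsf18 UMI was found in 20.9% of NK, 21.8% of gdT/NKT and 0.158% of tumor epithelial-like cells, which should lack it (40.2%, 37.3% and 1.26% without thinning, at median depths of 3240, 2774 and 15303 UMIs). NK and gdT/NKT cells were thus above that background for Tnfrsf18. In myeloid classes it was at 53.2 ± 30.5 CPM in mature dendritic-like, 39.2 ± 21.7 CPM in conventional dendritic-like and 7.69 ± 4.66 CPM in macrophage or monocyte-like cells. The most similar genes were Gata3 (0.91), Cd2 (0.90), Icos (0.88), Ctla4 (0.87) and Ccr8 (0.85).

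Tnfrsf1b, the TNFR2 gene, was the most evenly spread of the 4 TNF receptors. Neutrophil-like cells (502 ± 97.3 CPM, n = 13) and Treg (494 ± 191 CPM, n = 9) led and did not differ beyond their spread, and Treg stood above the next type, gdT/NKT (239 ± 154 CPM, n = 12), by more than the larger SD. The remaining lymphoid and myeloid levels lay close together, at 229 ± 146 CPM in naive_CD4T, 223 ± 95.2 CPM in naive_CD8T, 197 ± 111 CPM in act_CD4T, 194 ± 73.3 CPM in NK, 194 ± 28.0 CPM in macrophage or monocyte-like and 150 ± 44.9 CPM in mature dendritic-like cells. In tumor epithelial-like cells it was 29.1 ± 4.11 CPM (n = 15). A Tnfrsf1b UMI was found in 52.2% of neutrophil-like and 48.7% of Treg cells at 1500 UMIs per cell. Across cell types its pattern had almost nothing in common with that of Tnfrsf9 (r = 0.09, n = 17), and its most similar genes were Zfp292 (0.78), ENSMUSG00000120142 (0.77), Syf2 (0.75), Vasp (0.75) and Cyld (0.74), the last a deubiquitinase that restrains NF-kB.

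Icos was highest in Treg among the clusters with enough cells per mouse. It was at 2334 ± 343 CPM in Treg (n = 9), beyond the spread of the next type, naive_CD4T (728 ± 467 CPM, n = 6), which did not differ from act_CD4T (680 ± 208 CPM, n = 9). Summed over all mice, 2 clusters too small to be ranked also held much of it, Th17/ILCs at 2251 CPM (63 UMIs in 11 cells) and Cycling_Treg at 1459 CPM (29 cells). Levels of 427 ± 206 CPM in naive_CD8T, 279 ± 156 CPM in Cycling_T, 173 ± 82.3 CPM in NK and 163 ± 123 CPM in gdT/NKT followed. At 1500 UMIs per cell 92.0% of Treg had an Icos UMI, and 0.23% of tumor epithelial-like cells. The genes most like it were D16Ertd472e (0.93), Cd2 (0.92), Cd247 (0.92), Trac (0.91) and Rasgrp1 (0.90), of which Cd247 and Trac code for parts of the T cell receptor complex. Cd28 fell off more gradually over the T cell clusters, at 564 ± 164 CPM in Treg, 516 ± 271 CPM in naive_CD4T, 281 ± 89.9 CPM in naive_CD8T, 209 ± 39.7 CPM in act_CD4T, 204 ± 67.1 CPM in Cycling_T and 170 ± 107 CPM in gdT/NKT. No neighbours in this order differed beyond their spread until NK cells (112 ± 39.0 CPM, n = 15), which stood above the neutrophil-like cells. The genes most like Cd28 were Tox (0.96), Grap (0.95), Gimap8 (0.94), Peli1 (0.94) and Gimap4 (0.94).

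The ligand Tnfsf9 was highest in myeloid cells. Mature dendritic-like cells (88.1 ± 42.8 CPM, n = 14), macrophage or monocyte-like cells (62.0 ± 20.2 CPM, n = 15) and conventional dendritic-like cells (60.5 ± 31.1 CPM, n = 15) were highest, and act_CD4T (40.1 ± 35.8 CPM), mast or basophil-like (40.5 ± 65.7 CPM) and tumor epithelial-like cells (33.0 ± 6.20 CPM, n = 15) came after. No neighbours in this order differed beyond their spread. A Tnfsf9 UMI was seen in 12.1% of mature dendritic-like, 7.08% of macrophage or monocyte-like and 4.06% of tumor epithelial-like cells at 1500 UMIs per cell. Its correlation over the 17 types was negative with Icos (r = −0.62) and with Cd28 (r = −0.62) and close to 0 with Tnfrsf4 (0.11) and with its receptor Tnfrsf9 (0.04), whereas the receptors correlated positively among themselves, up to 0.88 for Tnfrsf18 with Icos, 0.79 for Icos with Cd28 and 0.72 for Tnfrsf9 with Tnfrsf18. The genes nearest to Tnfsf9 were Tcf4 (0.92), Ppfibp1 (0.91), Aif1 (0.89), Srxn1 (0.89) and Slc29a3 (0.89).

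Counted per cell, Treg combined most of the receptors. Of the 6 receptors, a mean of 4.48 was detected in a Treg cell thinned to 1500 UMIs, and 94.7% of Treg had at least 3. The mean was 2.56 in act_CD4T, 1.48 in naive_CD4T, 1.26 in Cycling_T, 1.25 in NK, 1.24 in gdT/NKT, 1.23 in naive_CD8T and 0.448 in macrophage or monocyte-like cells. Without thinning, Tnfrsf4 and Tnfrsf18 were detected together in 99 of 113 Treg cells, where the product of their shares gives 97.6. By library the Treg mean was 4.77, 4.42 and 4 (PBS, mono-IL10, IL10/2-Trikine), and that of Cycling_T was 1.70, 1.34 and 0.979. These means over the cells of a library were not tested over mice.

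The design asks whether the 2 cytokines changed costimulatory receptors in tumor T and NK cells. In all annotated T and NK cells summed per mouse, 4 receptors were lower after IL10/2-Trikine than after PBS: Tnfrsf4, Tnfrsf18, Icos and Cd28, with folds of 2.67, 2.03, 1.78 and 1.56. Tnfrsf4, Tnfrsf18 and Cd28 were also lower than after mono-IL10, and no member differed between mono-IL10 and PBS. Expression summed over a mixture cannot tell fewer cells of a type from less RNA per cell, and the composition of these cells moved too. The share of act_CD4T, Treg and Cycling_Treg cells among a mouse's T and NK cells was 18.3%, 15.6%, 31.0%, 30.4% and 26.8% in the PBS mice, 19.3%, 22.6%, 22.9%, 17.2% and 21.3% in the mono-IL10 mice, and 26.9%, 12.7%, 6.52%, 10.4% and 10.5% in the IL10/2-Trikine mice. T cells of any cluster were 62.5% to 83.3% of a mouse's T and NK cells in PBS, 62.8% to 74.4% in mono-IL10 and 35.4% to 59.7% in IL10/2-Trikine, the last below all other mice.

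Tnfrsf4 was at 240, 148, 442, 336 and 399 CPM in PBS mice 1 to 5, 205, 347, 272, 218 and 132 CPM in mono-IL10 mice, and 206, 119, 113, 54.5 and 75.2 CPM in IL10/2-Trikine mice. IL10/2-Trikine mouse 1, the mouse with the highest share of activated CD4 and regulatory T cells of its group, overlapped the PBS mice, and the other 4 lay below all of them. The log2 fold change against PBS was −1.42 (SE 0.30, adjusted p = 0.00367, edgeR quasi-likelihood test) and against mono-IL10 −1.05 (SE 0.29, adjusted p = 0.023).

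Tnfrsf18 was at 357, 290, 385, 437 and 457 CPM in PBS, 273, 280, 302, 245 and 269 CPM in mono-IL10, and 285, 197, 161, 143 and 140 CPM in IL10/2-Trikine. Every IL10/2-Trikine mouse lay below every PBS mouse, and the mono-IL10 mice, at 245 to 302 CPM, overlapped with both groups. The difference against PBS was −1.02 (SE 0.17, adjusted p = 0.000395) and against mono-IL10 −0.58 (SE 0.17, adjusted p = 0.0259) on the log2 scale. Between mono-IL10 and PBS it was −0.44 (adjusted p = 0.15).

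Among the CD28 family, Icos was at 602, 416, 639, 572 and 470 CPM in PBS, 510, 512, 462, 530 and 368 CPM in mono-IL10, and 594, 274, 113, 191 and 281 CPM in IL10/2-Trikine. Mouse 1 of the IL10/2-Trikine group was again within the PBS range and the other 4 below it. The log2 difference was −0.83 against PBS (SE 0.24, adjusted p = 0.0277) and −0.72 against mono-IL10 (SE 0.23, adjusted p = 0.0565), the latter not past the threshold of 0.05. Cd28 was at 209, 203, 254, 288 and 302 CPM in PBS, 235, 259, 229, 225 and 175 CPM in mono-IL10, and 201, 148, 96.6, 177 and 160 CPM in IL10/2-Trikine, with no overlap between IL10/2-Trikine and PBS. Its differences were −0.64 (SE 0.17, adjusted p = 0.0153) and −0.54 (SE 0.16, adjusted p = 0.0314).

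Tnfrsf9 and Tnfrsf1b did not pass the test in any of these contrasts. Tnfrsf9 was at 668, 811, 802, 773 and 643 CPM in PBS, 541, 510, 798, 429 and 787 CPM in mono-IL10, and 543, 525, 507, 633 and 588 CPM in IL10/2-Trikine (−0.39 against PBS, SE 0.15, adjusted p = 0.116). The IL10/2-Trikine and PBS mice did not overlap, and the gene passed in an exact permutation test over mice (adjusted p = 0.0476 over 18 tests). That test gives its smallest p only where groups do not overlap, and Tnfrsf4 and Icos overlapped with PBS. Its results for the other members in this contrast are not given here. Tnfrsf1b was at 246 ± 33.3, 183 ± 29.1 and 190 ± 36.2 CPM in the 3 groups (−0.32 for IL10/2-Trikine against PBS, adjusted p = 0.214). Tnfsf9 had too few UMIs in these cells to be tested. In all, 4 of 6 members tested were called in IL10/2-Trikine against PBS, where 9.49% of the 4595 genes tested were called (4.79% lower), and 3 of 6 against mono-IL10, where 8.84% were called (4.90% lower). In mono-IL10 against PBS 0 of 6 were called by edgeR and by DESeq2, with 1.11% of all genes called, and 2 members (Tnfrsf18 and Tnfrsf1b) had an unadjusted p under 0.05. DESeq2 called 3 members against PBS, not Icos (−0.85, adjusted p = 0.0671), and 2 against mono-IL10, not Tnfrsf4 (−1.07, adjusted p = 0.056). With only cells of at least 1500 genes, Tnfrsf18 alone passed against PBS (−0.82, adjusted p = 0.0338), with Tnfrsf4 at −1.25, Icos at −0.57 and Cd28 at −0.20, and none passed against mono-IL10, with Tnfrsf4 at −0.88, Tnfrsf18 at −0.41 and Cd28 at −0.33.

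**Figure D2:**
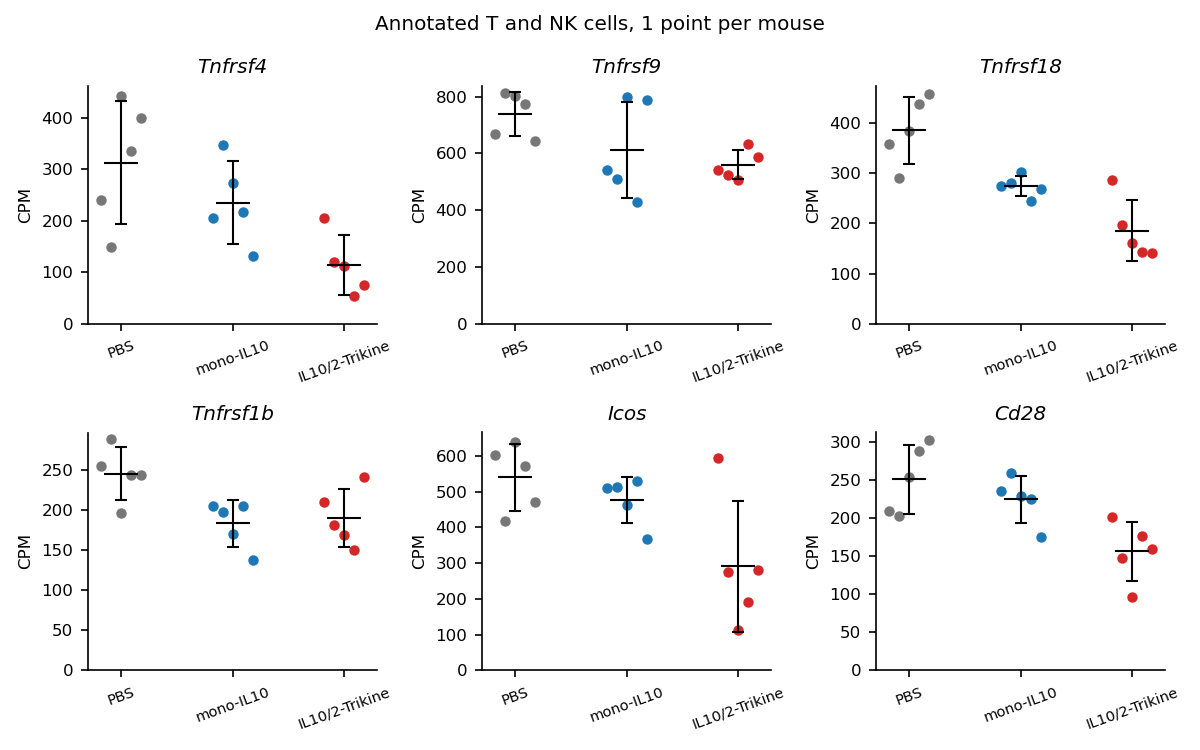
CPM of the 6 receptors in all annotated T and NK cells of each mouse, by treatment; points are mice (5 per group), the horizontal mark is the mean and the bars are the SD. Tnfrsf18 and Cd28 show IL10/2-Trikine mice below all PBS mice, while IL10/2-Trikine mouse 1 (206 CPM of Tnfrsf4, 594 CPM of Icos) lies within the PBS range of those genes.

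Separating the T cells from the NK cells left fewer calls. In T cells 2 of 6 members were lower in IL10/2-Trikine than in PBS (8.97% of the 3189 genes tested were called, 3.83% lower). Tnfrsf4 was at 448 ± 171, 361 ± 112 and 229 ± 75.4 CPM in PBS, mono-IL10 and IL10/2-Trikine (n = 5 each), with a log2 difference from PBS of −0.89 (SE 0.27, adjusted p = 0.0358), and Tnfrsf18 was at 479 ± 98.7, 328 ± 34.6 and 254 ± 71.7 CPM (−0.86, SE 0.18, adjusted p = 0.00295). Cd28 (−0.56, adjusted p = 0.0505) and Icos (−0.56, adjusted p = 0.110) did not pass. Against mono-IL10 1 member, Cd28, was lower (−0.54, SE 0.17, adjusted p = 0.0397), at 12.3% of all genes called (6.21% lower), and in mono-IL10 against PBS 0 were called (1 by DESeq2, and 2 at an unadjusted p under 0.05), at 1.72%, with Tnfrsf18 at −0.52 (adjusted p = 0.0732). Both sets of calls were lost under several settings, among them one that touches the dividing cluster Cycling_T. When those of its cells that held more UMIs of NK cell genes than of T cell genes were moved to the NK cells, 0 members were called in T cells in either IL10/2-Trikine contrast, Tnfrsf4 being at −0.35 (adjusted p = 0.543), Tnfrsf18 at −0.49 (adjusted p = 0.185) against PBS and Cd28 at −0.27 (adjusted p = 0.506) against mono-IL10. The naive clusters, among the highest in Cd28, also differed in size between the libraries. In PBS, mono-IL10 and IL10/2-Trikine naive_CD8T held 31, 121 and 2 of these T cells and naive_CD4T 19, 29 and 0.

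In NK cells 0 of 5 members were called by edgeR or DESeq2, against 4.42%, 2.38% and 0.297% of all genes in IL10/2-Trikine against PBS, IL10/2-Trikine against mono-IL10 and mono-IL10 against PBS. An unadjusted p under 0.05 was reached by 1, 1 and 0 members in these contrasts. The differences nearest to the threshold were those of Tnfrsf18 in IL10/2-Trikine against mono-IL10 (−0.66, SE 0.22, adjusted p = 0.108, 4 mono-IL10 mice) and of Tnfrsf9 in IL10/2-Trikine against PBS (−0.60, SE 0.28, adjusted p = 0.259). The NK cluster without the dividing NK cells gave 0 calls as well, against 2.53%, 0.817% and 0.245% of all genes. Whether a member moved differently in T and NK cells was tested by an exact permutation of mice, and no gene passed, the smallest adjusted p being 0.333 (Tnfrsf18, mono-IL10 against PBS, a difference of 0.75 on the log2 scale between the cell types).

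The clusters act_CD4T, Treg and Cycling_Treg, among the highest in Tnfrsf4, Tnfrsf9 and Tnfrsf18, were fitted together with 3 IL10/2-Trikine mice. By edgeR or DESeq2 0 of 6 members were called, where 0.403%, 0.471% and 0.269% of 1487 genes were called in the same order of contrasts. There 1, 1 and 0 members had an unadjusted p under 0.05. Tnfrsf4 was at 840, 855 and 635 CPM in the IL10/2-Trikine mice against 997 to 1344 CPM in the PBS mice (−0.50, SE 0.25, adjusted p = 0.464), and Tnfrsf18 at 745, 672 and 519 CPM against 853 to 1030 CPM (−0.51, SE 0.20, adjusted p = 0.299). Neither gene passed. The groups did not overlap for either, but how many of all 1487 genes did so with 3 IL10/2-Trikine mice was not counted. Treg, act_CD4T and Cycling_Treg held 43, 33 and 12 cells in PBS. They held 50, 69 and 6 in mono-IL10 and 20, 23 and 11 in IL10/2-Trikine. The part of this mix in the differences was not tested. Summed over the 20 to 50 Treg cells of each library, Tnfrsf4 was at 1743 CPM in PBS (95% exact Poisson interval 1505 to 2007), 2652 CPM in mono-IL10 (2390 to 2935) and 1181 CPM in IL10/2-Trikine (906 to 1515), and Tnfrsf18 at 1445 (1230 to 1687), 1390 and 953 CPM (707 to 1256). In act_CD4T Tnfrsf4 was at 630, 619 and 387 CPM, again lowest in IL10/2-Trikine, and Icos at 465, 813 and 468 CPM. These sums were not tested over mice, since no IL10/2-Trikine mouse reached the minimum of 10 cells in either cluster.

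Cycling_T and NK were the clusters with enough mice for a fit of their own, and Cycling_T gave the one call. Icos, in IL10/2-Trikine against mono-IL10, was at 229, 119, 46.9, 102 and 211 CPM against 490, 270, 369 and 369 CPM, with no overlap (log2 difference −1.37, SE 0.28, adjusted p = 0.00281), and 1 of the 5 members tested was called where 6.58% of genes were (3.53% lower). The call was lost with cells of at least 1500 genes (−1.06, adjusted p = 0.0571) and in an exact permutation test over mice (−1.49 on the log2(CPM + 10) scale, adjusted p = 0.0992). Cd28 was at −0.72 (adjusted p = 0.113). The cluster did not hold the same cells in every library. Its cells were split by UMIs of 5 NK cell genes (Ncr1, Klrb1c, Klre1, Tyrobp, Fcer1g) and 5 T cell genes (Cd3e, Cd3d, Cd3g, Trac, Trbc2). Cycling_T cells with more of the former were 12 of 43 (27.9%) in PBS, 14 of 99 (14.1%) in mono-IL10 and 59 of 94 (62.8%) in IL10/2-Trikine. The cluster as a whole held 433 CPM of Cd3e and 63.4 CPM of the NK receptor gene Ncr1. It also held 597 CPM of summed macrophage markers, whose part in this split was not tested. In the remaining Cycling_T cells of each library, summed over mice and not tested, Icos was at 164 CPM in IL10/2-Trikine (exact Poisson interval 98.5 to 256), 369 CPM in PBS (272 to 490) and 448 CPM in mono-IL10 (396 to 506). In the order PBS, mono-IL10 and IL10/2-Trikine, Cd28 was at 339 (246 to 454), 286 (244 to 332) and 224 CPM (146 to 328), and Tnfrsf18 was at 154, 145 and 155 CPM. No Tnfrsf4 UMI was counted in the NK-leaning cells of any library (upper bounds 39.1, 26.8 and 17.6 CPM), against 76.9, 89.7 and 25.8 CPM in the others. Too few mice had enough of the remaining cells for a fit.

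**Figure D3:**
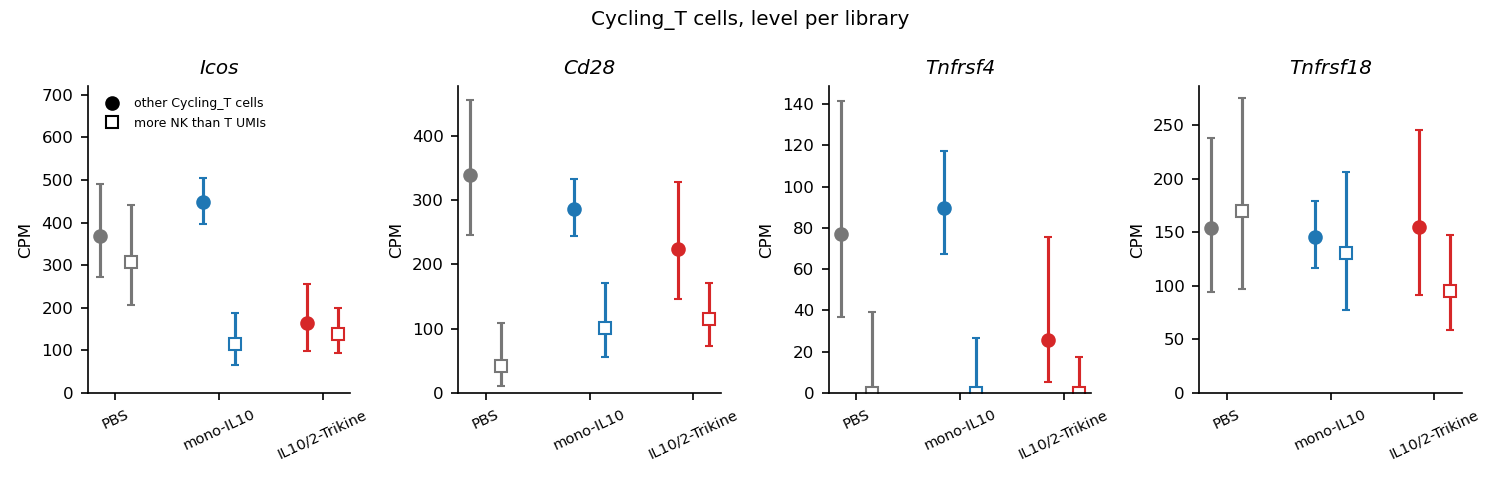
CPM of Icos, Cd28, Tnfrsf4 and Tnfrsf18 in Cycling_T cells of each library; open symbols are the cells whose NK gene UMIs exceeded their T cell gene UMIs, filled symbols the other Cycling_T cells, and bars are exact Poisson 95% intervals. Filled Icos lies at 164 CPM in IL10/2-Trikine and at 369 and 448 CPM in PBS and mono-IL10, and open Tnfrsf4 is at 0 in all libraries.

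To set composition apart from level, each mouse's value was divided by the value expected if every annotated cluster had 1 common level and the mouse differed in its cluster shares only. The shares alone gave an expected log2 difference, IL10/2-Trikine minus PBS, of −1.03 for Tnfrsf4, −0.72 for Icos, −0.49 for Tnfrsf18, −0.39 for Cd28, −0.25 for Tnfrsf9 and −0.17 for Tnfrsf1b. In this contrast, for Tnfrsf4, Icos and Cd28 this was more than what remained at fixed shares, −0.39 (exact permutation p = 0.119), −0.33 (exact p = 0.183) and −0.28 (exact p = 0.19), respectively. For Tnfrsf18 more remained than the shares gave, −0.55 with an exact p of 0.00794, the smallest that 5 against 5 mice can give. Against mono-IL10 the shares alone gave less, −0.41 for Tnfrsf4, −0.36 for Icos, −0.25 for Cd28 and −0.13 for Tnfrsf18. For Tnfrsf4 and Icos the order was reversed, and for Cd28 both parts were about equal. The differences at fixed shares there were −0.64 for Tnfrsf4 and −0.52 for Icos (exact p = 0.0476 each) and −0.46 for Tnfrsf18 (exact p = 0.00794). None passed after adjustment over the 21 tests of 7 genes and 3 contrasts, where Tnfrsf18 was at an adjusted p of 0.0833 in both contrasts. Counting the NK-leaning Cycling_T cells as a cluster of their own left Tnfrsf18 at −0.54 against PBS and −0.44 against mono-IL10, and Icos at −0.26 and −0.42. The shares alone then gave −0.46 for Icos and −0.41 for Cd28 against mono-IL10, for both more than what remained.

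**Figure D4:**
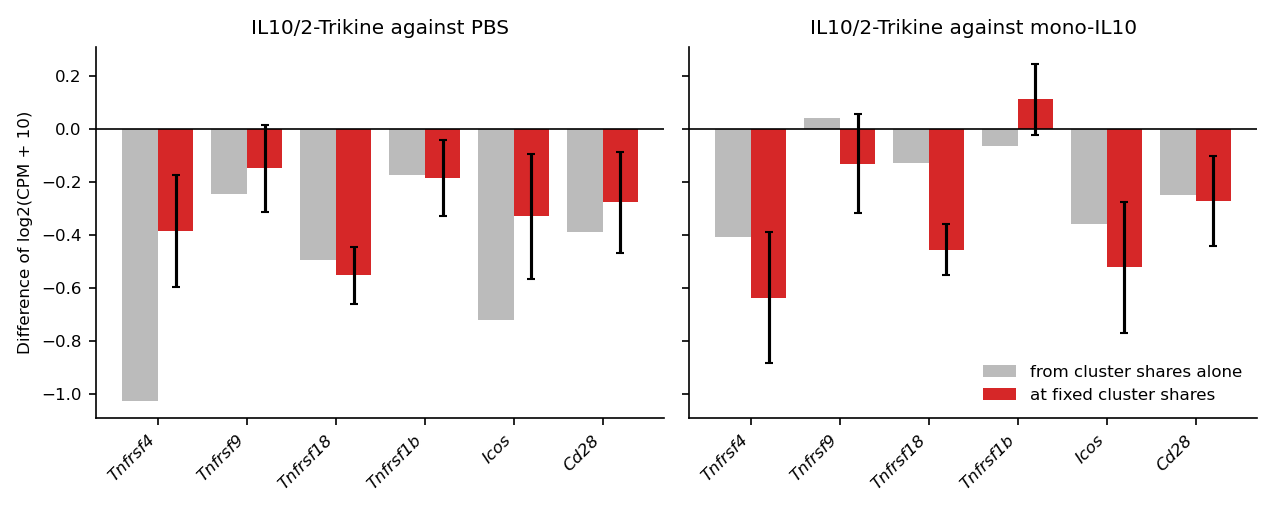
Difference of log2(CPM + 10) between treatments for the members in T and NK cells, IL10/2-Trikine set against each of the other groups; grey bars are the difference expected from cluster shares alone and red bars the difference at fixed shares, with the SE of the difference over 5 mice per group. The grey bar is the longer for Tnfrsf4 against PBS (−1.03 and −0.39) and the red bar for Tnfrsf18 (−0.49 and −0.55).

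Macrophage or monocyte-like cells were the largest named immune class (6978, 5360 and 3681 cells with a mouse) and showed a split within the gene list. After mono-IL10, the ligand Tnfsf9 and the receptors Tnfrsf9 and Tnfrsf1b rose and Cd28 and Tnfrsf18 fell against PBS. After IL10/2-Trikine, Icos, Tnfrsf18, Tnfrsf4 and Cd28 were higher and Tnfrsf1b lower than in PBS. T cell marker transcripts in the class were also higher there. Without the barcodes holding T or NK cell UMIs Icos, Tnfrsf18 and Tnfrsf1b passed, Tnfrsf4 did not and Cd28 turned to −0.36 (adjusted p = 0.518). The share of all genes called without those barcodes is not given here. In each of these contrasts 5 of 7 members were called, with 26.9% of the 11973 genes tested called in mono-IL10 against PBS (13.8% higher and 13.1% lower) and 17.6% in IL10/2-Trikine against PBS (9.23% higher and 8.39% lower). All 7 differed between the 2 cytokines, where 13.2% of genes were called (5.73% higher and 7.48% lower in IL10/2-Trikine). With every mouse thinned to 1 total the counts against PBS were 2 for mono-IL10 and 3 for IL10/2-Trikine, and without IL10/2-Trikine mouse 1 the latter was 3.

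Tnfsf9 was at 54.6, 64.4, 44.5, 47.6 and 58.9 CPM in PBS, 96.4, 89.6, 101, 63.7 and 79.1 CPM in mono-IL10, and 50.5, 40.02, 48.4, 41.4 and 49.4 CPM in IL10/2-Trikine. All mono-IL10 mice but mouse 4 stood above every other mouse, and mouse 4 was just below the highest PBS mouse. The log2 difference of mono-IL10 from PBS was 0.75 (SE 0.12, adjusted p = 8.7e-05), that of IL10/2-Trikine from mono-IL10 −1.02 (SE 0.14, adjusted p = 9.4e-05), and that of IL10/2-Trikine from PBS −0.27 (adjusted p = 0.208). The class was made of 10 clusters, and Tnfsf9 was higher in mono-IL10 than in PBS in all 10 of them, ranging overall from 30.4 to 143 CPM between clusters. At fixed shares of these clusters the mono-IL10 difference was 0.54 (exact p = 0.00794, adjusted p = 0.0238 over 21 tests), while the shares alone gave 0.04. IL10/2-Trikine at fixed shares was −0.45 from mono-IL10, with −0.32 from the shares.

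The receptor of this ligand, Tnfrsf9, was at 122, 151, 165, 203 and 146 CPM in PBS, 188, 232, 270, 210 and 216 CPM in mono-IL10, and 108, 149, 191, 133 and 217 CPM in IL10/2-Trikine. The mono-IL10 mice lay above 4 of the 5 PBS mice. Its log2 differences were 0.59 for mono-IL10 from PBS (SE 0.15, adjusted p = 0.00607), −0.63 for IL10/2-Trikine from mono-IL10 (adjusted p = 0.0127) and −0.04 for IL10/2-Trikine from PBS (adjusted p = 0.906). Cluster by cluster the libraries did not all follow the values of the whole class, since IL10/2-Trikine was above mono-IL10 in 4 of 10 clusters and above PBS in 8. The level was higher in mono-IL10 than in PBS in 9 of 10 clusters, and at fixed cluster shares by 0.44 (exact p = 0.0159, adjusted p = 0.0303). Tnfrsf1b moved less, with means of 197 ± 10.0, 221 ± 15.3 and 162 ± 16.1 CPM in PBS, mono-IL10 and IL10/2-Trikine, and the IL10/2-Trikine mice lay below all others. Its log2 differences were 0.24 (SE 0.07, adjusted p = 0.0147) for mono-IL10 and −0.30 (SE 0.08, adjusted p = 0.00931) for IL10/2-Trikine, both from PBS. At fixed cluster shares the mono-IL10 difference was 0.07 (exact p = 0.183, adjusted p = 0.202).

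The receptors of T cells were at low levels in this class. Icos was at 12.2, 9.48, 17.0, 10.7 and 11.4 CPM in PBS, 12.7, 11.8, 6.17, 4.19 and 2.56 CPM in mono-IL10, and 32.7, 28.0, 31.4, 20.4 and 16.1 CPM in IL10/2-Trikine. Tnfrsf18 was at 4.59 to 7.85 CPM in PBS, 1.38 to 5.96 CPM in mono-IL10 and 12.3 to 15.5 CPM in IL10/2-Trikine. Tnfrsf4 was at 4.17 to 7.18, 1.77 to 5.81 and 6.32 to 16.9 CPM, and Cd28 at 5.84 to 8.01, 2.33 to 5.49 and 8.55 to 16.1 CPM. For Tnfrsf18 and Cd28 the IL10/2-Trikine mice lay above all others. The log2 differences from PBS were 1.12 for Icos (SE 0.28, adjusted p = 0.00947), 1.05 for Tnfrsf18 (SE 0.26, adjusted p = 0.00821), 0.91 for Tnfrsf4 (SE 0.31, adjusted p = 0.045) and 0.82 for Cd28 (SE 0.22, adjusted p = 0.0123). Between mono-IL10 and PBS the difference was −0.82 for Cd28 (adjusted p = 0.00632) and −0.78 for Tnfrsf18 (adjusted p = 0.0299), and Icos (−0.49, adjusted p = 0.207) and Tnfrsf4 (−0.59, adjusted p = 0.144) did not pass.

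T cell transcripts moved with these genes in the macrophage class. Barcodes with at least 1 UMI of 8 T or NK cell genes were 6.42%, 5.82% and 11.6% of the class in PBS, mono-IL10 and IL10/2-Trikine, with the summed level of 5 T cell markers at 20.2 to 33.2 CPM in PBS mice, 9.64 to 31.8 CPM in mono-IL10 mice and 52.9 to 80.8 CPM in IL10/2-Trikine mice. The 4 Treg markers summed to 28.8 to 46.6, 18.5 to 38.6 and 73.0 to 112 CPM, and the 5 NK markers to 15.0 to 29.2, 5.58 to 12.7 and 14.7 to 26.6 CPM, and none of these markers was at 0 in all mice of a group. The T and Treg marker sums of every IL10/2-Trikine mouse were thus above those of every other mouse, while the NK sums overlapped with PBS. Tnfrsf4 and Icos were found in the same barcode in 145 of 16019 cells, where the product of their shares gives 9.22 cells. Without the barcodes holding such a UMI the levels dropped for all 4 T cell receptors, Icos to 1.58, 1.08 and 5.75 CPM and Tnfrsf18 to 2.65, 1.38 and 4.69 CPM. Icos (2.04, adjusted p = 0.00024) and Tnfrsf18 (0.85, adjusted p = 0.0272) stayed higher in IL10/2-Trikine than in PBS, Tnfrsf4 was at 1.08 (adjusted p = 0.0801), and Cd28 turned to −0.36 (adjusted p = 0.518). Between mono-IL10 and PBS, Tnfsf9 (0.76), Tnfrsf9 (0.60) and Tnfrsf1b (0.24) differed as much as before. Cd28 and Tnfrsf18 also stayed lower in mono-IL10 than in PBS without these barcodes, with no overlap between the mice. Cd28 was at 0.662 to 2.05 CPM in mono-IL10 mice and 2.34 to 4.95 CPM in PBS mice. Tnfrsf18 was at 0.828 to 2.17 CPM and 2.32 to 3.03 CPM, respectively. Icos overlapped, at 0.616 to 1.49 CPM in mono-IL10 mice and 0.86 to 2.23 CPM in PBS mice. Tnfrsf4 overlapped too, at 0.723 to 1.23 CPM and 0.689 to 2.55 CPM. How many of all genes did not overlap in this comparison was not counted. The part of T and NK cell RNA was not tested further for any of these differences. The T cell gene Lck also stayed higher in IL10/2-Trikine than in PBS without the barcodes holding T or NK cell UMIs, as given further on. Median depth differed too, at 2512 to 3039 UMIs per cell in IL10/2-Trikine mice against 4546 to 7302 in the others.

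**Figure D5:**
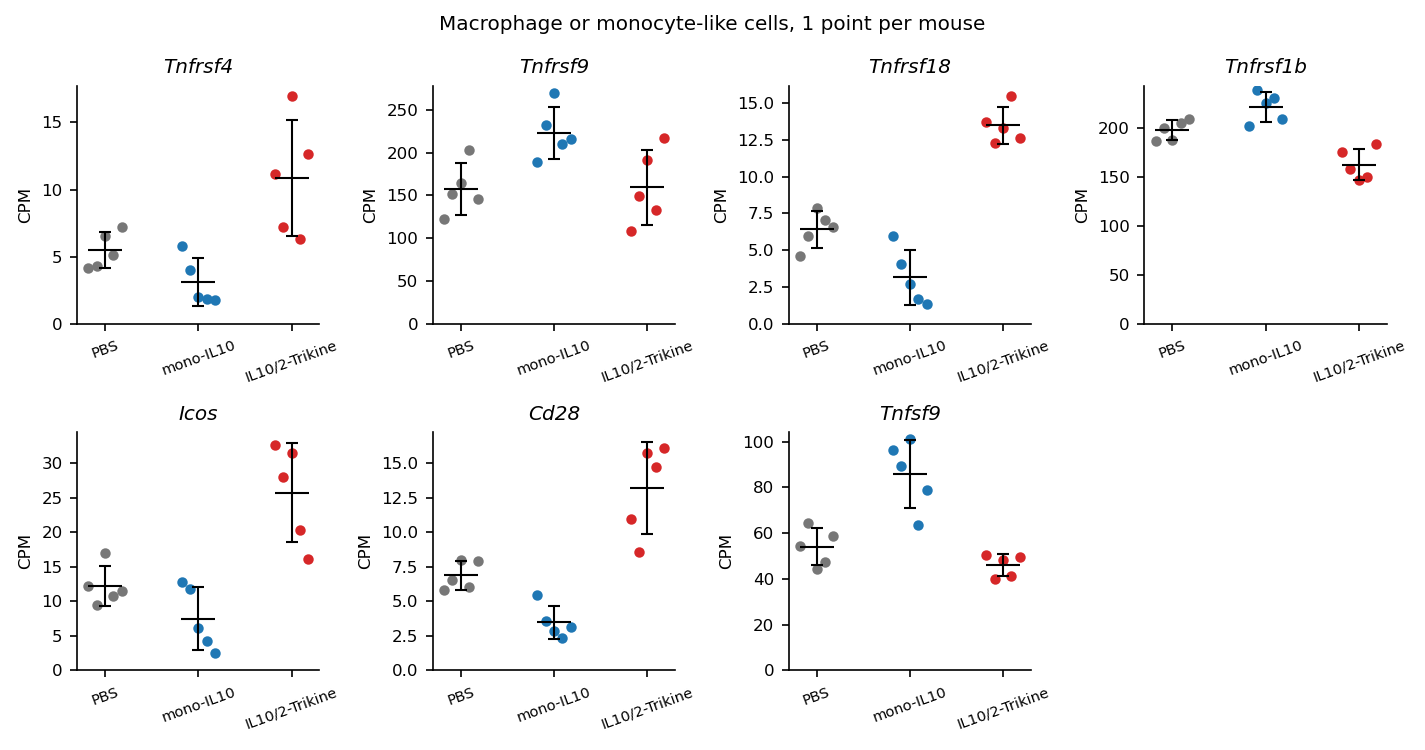
CPM of the 7 genes in macrophage or monocyte-like cells of each mouse, by treatment; points are mice (5 per group), the horizontal mark is the mean and the bars are the SD. Tnfsf9 has its highest mean in mono-IL10 (86.0 CPM, against 54.0 in PBS and 46.0 in IL10/2-Trikine), while Icos, Tnfrsf18, Tnfrsf4 and Cd28 have their highest means in IL10/2-Trikine, at much lower CPM.

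In dendritic cell-like cells, conventional and mature ones together, 0 of 6 members were called by edgeR or DESeq2 in any contrast, where 0.134%, 3.44% and 1.42% of 5209 genes were called in IL10/2-Trikine against PBS, IL10/2-Trikine against mono-IL10 and mono-IL10 against PBS. Tnfrsf9 was at 214 ± 35.8, 281 ± 83.6 and 280 ± 129 CPM and Tnfsf9 at 80.6, 62.3 and 71.9 CPM in the 3 groups. The mono-IL10 difference from PBS was 0.68 for Tnfrsf18 (adjusted p = 0.213) and 0.47 for Tnfrsf9, the 2 members with an unadjusted p under 0.05. In the conventional dendritic-like cells alone, Tnfrsf9 was lower in IL10/2-Trikine than in mono-IL10 (−2.18, SE 0.55, adjusted p = 0.0468), with 1.48% of 4730 genes called and 1.25% lower. Macrophage marker UMIs made up 0.288%, 0.197% and 0.536% of the UMIs of dendritic-like cells in PBS, mono-IL10 and IL10/2-Trikine, and their part in this difference was not tested. In neutrophil-like cells only Tnfrsf1b had enough UMIs to be tested, with 3.22% of 2670 genes called. It was at 517 ± 62.7 CPM in mono-IL10 and 524 ± 76.3 CPM in PBS (n = 5 each), and the fitted log2 difference of 0.03 did not pass (adjusted p = 0.928).

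The signaling partners of these receptors were followed as 49 genes in 5 lists, namely ligands, other costimulatory TNF family genes, TRAF and NF-kB genes, CD28 and ICOS signaling genes, and inhibitory CD28 family receptors. In T and NK cells 31 of them could be tested, and 0 were higher and 4 lower in IL10/2-Trikine against PBS, where 9.49% of all genes were called and 4.79% lower, with a median log2 difference of −0.34 against −0.01 over all genes. Among them were the NF-kB inhibitor gene Nfkbib (−1.20, adjusted p = 0.0119), the deubiquitinase gene Tnfaip3 (−0.35, adjusted p = 0.0418) and the inhibitory receptor gene Pdcd1 (−0.86, adjusted p = 0.0492). The fall in the T cell share of these cells given above moved with them, and its part was not tested. Against mono-IL10 0 were higher and 6 lower (median −0.17, with 4.90% of all genes lower), among them Nfkbib (−1.36), Pdcd1 (−1.12), Prkcq (−0.69), Traf1 (−0.61) and Tnfaip3 (−0.36), Prkcq and Traf1 coding for a kinase of the CD28 pathway and a TRAF adaptor. In mono-IL10 against PBS none of the 31 was called (median −0.02), where 1.11% of all genes were. The T cells alone, with 25 genes tested, gave 3 lower against PBS, 4 lower against mono-IL10 and 1 lower between mono-IL10 and PBS, and none higher, where 3.83% and 6.21% of all genes were lower in the contrasts with IL10/2-Trikine and 1.72% were called between mono-IL10 and PBS. T cell marker UMIs were 0.275%, 0.356% and 0.183% of the UMIs of these T cells in PBS, mono-IL10 and IL10/2-Trikine. The part of this difference in the calls was not tested. In NK cells none of 18 was called, with 4.42%, 2.38% and 0.297% of all genes called in these contrasts. In Cycling_T 1 of 12 genes tested, the inhibitory receptor gene Ctla4, was lower in IL10/2-Trikine than in mono-IL10 (−0.84, adjusted p = 0.0312), where 6.58% of all genes were called and 3.53% lower. Cells with more NK than T marker UMIs were 62.8% of that cluster in IL10/2-Trikine and 14.1% in mono-IL10, and their part in the difference was not tested.

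In macrophage or monocyte-like cells 43 of the 49 genes were tested, and the lists' median differences (−0.11, −0.16 and 0.07 in IL10/2-Trikine against PBS, IL10/2-Trikine against mono-IL10 and mono-IL10 against PBS) stood beside medians of 0.0032, 0.0081 and −0.0022 over all genes. In IL10/2-Trikine against PBS 10 were higher and 9 lower, where 9.23% of all genes were higher and 8.39% lower. Nfkb1 (−0.64), Rel (−0.49), Malt1 (−0.63) and Traf1 (−0.62), all of the NF-kB pathway, and the B7 ligand Cd80 (−0.61) were lower, and the signaling genes Vav1 (0.32) and Pik3cd (0.36) and the TNF family ligand Tnfsf14 (0.65) higher. Ctla4 (1.27) and Lck (1.42), genes of T cells, were also higher, along with the summed T cell markers given above. Chosen after their values were seen, the ICOS ligand gene Icosl was lower (−0.75) and the OX40 ligand gene Tnfsf4 (2.01) and the lymphocyte receptor gene Cd27 (1.22) higher. Without the barcodes holding T or NK cell UMIs 40 genes were tested, 6 being higher and 9 lower. The share of all genes called in that fit is not given here, so these counts have no background beside them. There Lck was at 2.18 (adjusted p = 0.00131), Ctla4 at 0.61 (adjusted p = 0.122) and Tnfsf4 at 1.64 (adjusted p = 0.0652), and Cd27 had too few UMIs to be tested. In mono-IL10 against PBS 11 were higher and 5 lower (13.8% and 13.1% of all genes), among them Tnfsf14 (1.16), Nfkbia (0.59), Map3k14 (0.44), Nfkbie (0.39), Vav1 (0.33) and Tnfrsf1a (0.31) higher, and Nfkb1 (−0.50), Rel (−0.49), Cd80 (−0.41) and Icosl (−0.75) lower. Tnfsf4, chosen after its value was seen, was higher there as well (1.36), and without those barcodes it was at 1.19 (adjusted p = 0.074). Between the 2 cytokines 6 were higher and 13 lower in IL10/2-Trikine (5.73% and 7.48% of all genes). Of the 18 TRAF and NF-kB genes, 9 were lower and 0 higher in that contrast, with Traf1 (−0.78), Nfkbia (−0.73), Map3k14 (−0.61), Relb (−0.51), Nfkbie (−0.48) and Birc3 (−0.43) among them. Malt1 was lower too (−0.55), and Pik3cd (0.38), Lck (1.66) and Ctla4 (1.58) were higher, along with the T cell marker sums. Without the barcodes holding T or NK cell UMIs Ctla4 was at 0.90 (adjusted p = 0.0351) and Lck at 2.12 (adjusted p = 0.0034).

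The 10 macrophage clusters were filled differently in the 3 libraries, cluster 17 with 172, 1482 and 353 cells in PBS, mono-IL10 and IL10/2-Trikine and cluster 18 with 1399, 312 and 177. The pathway genes were therefore also compared at fixed shares of these clusters, on the log2(CPM + 10) scale and without a test, a step added after the data were seen. All 19, 19 and 16 genes called in IL10/2-Trikine against PBS, IL10/2-Trikine against mono-IL10 and mono-IL10 against PBS had the sign of their fitted difference, and for 7, 5 and 2 of them the shares alone gave more than what remained. For Nfkb1 in IL10/2-Trikine against PBS −0.20 remained and the shares gave −0.39, and for Malt1 −0.17 remained and the shares gave −0.42. For Nfkbia between the 2 cytokines −0.33 remained and the shares gave −0.28, and for Tnfsf14 in mono-IL10 against PBS 0.42 remained and the shares gave 0.19.

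In dendritic-like cells 1 of 31 was higher (Tnf, 2.08) and 1 lower (Traf1, −0.70) in IL10/2-Trikine against mono-IL10, where 3.44% of all genes were called and macrophage marker UMIs were at 0.536% and 0.197%, and none in the contrasts with PBS. The mix of the class differed too, with 276, 179 and 97 conventional and 162, 95 and 98 mature cells in PBS, mono-IL10 and IL10/2-Trikine. In neutrophil-like cells 2 of 26 were higher (Tnf, 0.98, and Nfkbia, 0.48) and 2 lower (Rel, −0.51, and Cd86, −1.24) in mono-IL10 against PBS, where 3.22% of all genes were called. The clusters of this class, 45 and 48, held 156 and 68 cells in PBS and 241 and 202 in mono-IL10. The part of this mix in the calls was not tested.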

How the data were processed

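Single-cell libraries of the 3 treatment groups were processed by the authors with the Cell Ranger software against GRCm39, and the deposited matrices hold raw UMI counts per gene and barcode, with 5 hashtag features in the same matrix as the genes. The authors' cell table, made with Seurat (5.1.0 in the submitters' notes, which also name DESeq2 1.46.0), gave the clusters of T and NK cells, their mice, counts per cell and the percent of mitochondrial UMIs. A further 7858 cells in that table belong to a treatment for which no library was analysed here. No column of other per-sample values was left over (0).

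Other barcodes were kept with at least 1000 genes and at most 10% mitochondrial UMIs, assigned to mice with HTODemux (Seurat 5.3.0, quantile 0.99, singlets only, which removed hashtag doublets, at 56.3% to 67.9% singlets), and clustered without the 7 genes (2000 variable genes, 40 principal components, 60 k-means clusters, scikit-learn 1.9.0). For annotated cells this call gave the deposited mouse in 97.1% to 98.6% and another mouse in 0. Clusters were named "-like" from marker lists, with a score of at least 0.25 and markers of other lineages at most 0.2 of it, the latter changed after the clusters were seen. These names are rebuilt and may differ from the study's.

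UMIs were summed per mouse and cell type (mice with at least 10 cells, at least 3 mice per group; at least 5 cells for levels), and tested with edgeR 4.0.16 in R 4.3.3 (filterByExpr, TMM, quasi-likelihood, all groups in 1 fit, Benjamini-Hochberg over all genes tested, threshold 0.05). P-values measure the spread between mice, whose tags were assigned within 1 library per treatment. Two-sided exact permutation tests used log2(CPM + 10), and fold changes on that scale understate those of low genes. Values at fixed shares compare each mouse with the level expected from its cluster shares. Counts were also simulated, with the same assumed dispersion for every gene and population. The real counts need not share it, so recovery in them may differ from these figures. In T and NK cells 36.7% of genes changed by 1 log2 unit and 94.7% of those changed by 2 were recovered. The shares were 28.1% and 93.3% in T cells and 38.0% and 95.9% in NK cells. They were 35.7% and 96.0% in macrophage-like cells and 35.1% and 91.5% in dendritic-like cells. Every member is reported. Of the pathway lists the called genes were named, by adjusted p and at most 10 per comparison, except one that is not reported here, and as similar genes the 5 with the highest r among 12929 genes with at least 100 UMIs. The members, lists and tests were chosen with earlier results of these data known. The fits of activated CD4 and regulatory T cells, of fixed macrophage shares, of classes without T or NK barcodes, of T cells without Cycling_T or Treg, and of each dendritic class were chosen after seeing the data. Python 3.11.15, numpy 2.4.6, pandas 2.3.3 and scipy 1.17.1 were used.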

Additional observations from a re-analysis of the deposited data

Results flagged for a closer look

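In 7 of 129 groups of 4 or 5 mice, 1 mouse lay far from the others (its gap to the next mouse, over the range, exceeded Dixon's 95% critical value). Chance flags about 1 in 20 groups, or 6.45 of 129.

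Tnfrsf18 in T cells was at 379 CPM in IL10/2-Trikine mouse 1 and 208 to 248 CPM in the others of that group. This is the mouse with the highest share of activated CD4 and regulatory T cells of its group. Icos in NK cells was at 413 CPM in PBS mouse 1 against 121 to 171 CPM, and in the NK cluster alone at the same 413 CPM against 132 to 171 CPM. Icos in NK cells was also high in mono-IL10 mouse 4, at 262 CPM against 123 to 138 CPM. Tnfrsf9 in NK cells was at 745 CPM in mono-IL10 mouse 5 against 368 to 432 CPM. Cd28 in activated CD4 and regulatory T cells was at 631 CPM in PBS mouse 5 against 388 to 441 CPM. Tnfrsf4 in dendritic-like cells was lowest in mono-IL10 mouse 5, at 10.5 CPM against 35.9 to 44.8 CPM. The cause was not tested for any of these values.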

How the results depend on the processing

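The summary results were mostly counts of members called. Over all settings tried, 655 were equal or close to the main value and 38 moved further. The 655 include counts of 0 that stayed at 0, as in NK, dendritic-like and neutrophil-like cells with 1 mouse left out. How many these were is not given here. Another 7 rose from no call (stronger) and 27 fell to no call (weaker). Of the single-gene values 4111 kept their side of the threshold, 119 lost their call and 37 gained one. In 1 the sign turned while the gene was called in either setting. Changes of sign between values that did not pass were counted as kept. That one was Cd28 in macrophage-like cells, IL10/2-Trikine against PBS, at −0.36 without barcodes holding T or NK cell UMIs. The cause of the changes was not tested, beyond the fewer cells or mice that a setting keeps. Few single clusters held 10 cells in enough mice for a fit.

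In T and NK cells, the members called in IL10/2-Trikine against PBS (4) were 1 with cells of at least 1500 genes and 3 by DESeq2, and against mono-IL10 (3) they were 0 with that minimum, 1 with mice thinned to 1 total, 2 by DESeq2 and 0 by exact permutation. In T cells against PBS (2) they were 0 with NK-leaning Cycling_T cells moved, with at least 1500 genes, thinned, without Cycling_T or by exact permutation, 1 with at least 20 cells per mouse and 4 without a filter on low counts. In T cells against mono-IL10 (1) they were 0 under the same settings, with at least 20 cells and by DESeq2 1.42.0, and 3 without the filter or without Treg. In T cells of mono-IL10 against PBS DESeq2 called 1. In macrophage-like cells against PBS, IL10/2-Trikine (5) gave 3 thinned or without T and NK barcodes, and mono-IL10 (5) gave 2 thinned. Conventional dendritic-like cells alone gave 1 for IL10/2-Trikine against mono-IL10 (0 for both classes). Cycling_T (1) gave 0 with at least 1500 genes or by exact permutation and 2 without the filter. The shares of cells with a UMI fell on thinning to 86.7% (Tnfrsf4), 87.6% (Tnfrsf9), 83.2% (Tnfrsf18) and 49.6% (Cd28) in Treg, 52.2% (Tnfrsf1b) in neutrophil-like and 12.1% (Tnfsf9) in mature dendritic-like cells.

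Leaving out 1 mouse at a time, in the order IL10/2-Trikine against PBS, against mono-IL10 and mono-IL10 against PBS, gave 2 to 4, 0 to 4 and 0 calls in T and NK cells, 1 to 4, 0 to 2 and 0 to 1 in T cells, and 3 to 5, 6 to 7 and 4 to 7 in macrophage-like cells. It gave 1 in Cycling_T, and 0 in NK cells, the NK cluster, activated CD4 and regulatory T cells, dendritic-like and neutrophil-like cells, the T against NK difference and the fixed shares. With NK-leaning Cycling_T cells apart, fixed shares gave 0 to 1, 0 to 1 and 0 to 2, the calls coming without PBS mouse 3, and fixed macrophage shares gave 2 to 5, 5 to 6 and 3 to 6. In T and NK cells the count against PBS was 2 without IL10/2-Trikine mouse 2 or PBS mouse 4, and that against mono-IL10 was 0 without IL10/2-Trikine mouse 2 or 5 and 1 without IL10/2-Trikine mouse 3 or 4 or mono-IL10 mouse 1 or 2. In T cells the count against PBS was 4 without IL10/2-Trikine mouse 1 and 1 without any other IL10/2-Trikine mouse or PBS mouse 3, 4 or 5, and that against mono-IL10 was 2 without IL10/2-Trikine mouse 1 and 0 without any other IL10/2-Trikine mouse, PBS mouse 3 or mono-IL10 mouse 1, 2, 3 or 4. No paired analysis was possible because each treatment is 1 library and the hashtag number only names a mouse within it. Cycling_T could not be fitted thinned or without its NK-leaning cells, too few mice being left.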

Other observations

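A cluster left unnamed held transcripts of both Treg and macrophages in 1390 barcodes assigned to a mouse, of which 483 were from PBS, 312 from mono-IL10 and 595 from IL10/2-Trikine mice. Over these barcodes Tnfrsf9 was at 793 CPM, Icos at 605 CPM, Tnfrsf4 at 415 CPM, Tnfrsf1b at 299 CPM, Tnfrsf18 at 277 CPM and Cd28 at 135 CPM. They entered none of the comparisons. Among macrophage or monocyte-like clusters, Tnfsf9 was high in clusters 20 and 24, at 94.3 and 83.9 CPM in PBS, 177 and 204 CPM after mono-IL10, and 99.1 and 99.97 CPM after IL10/2-Trikine.

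The dividing Treg cluster, with 12 PBS, 6 mono-IL10 and 11 IL10/2-Trikine cells, was too small for a fit. Tnfrsf4 was at 1166 CPM (954 to 1410), 893 CPM (684 to 1144) and 1064 CPM (770 to 1433) there, with overlapping exact Poisson 95% intervals, and Icos at 1375, 1325 and 1880 CPM (1481 to 2353 in IL10/2-Trikine, against 1144 to 1638 in PBS).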
